A study of Equus caballus with 18 samples.

Results

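Undosed superficial gluteal muscle was compared between 2 cohorts of horses that later entered different clenbuterol regimens. The arrays described here are the 9 made from biopsies taken before any drug was given, out of 18 arrays in the series. They came from 5 horses of the low dose cohort (called L1 to L5) and 4 other horses of the escalating cohort (called E1 to E4), with 1 array per horse. All were healthy, exercised adult Thoroughbreds, and none had been treated at this point. Clenbuterol, a bronchodilator used for airway disease in horses, was given only afterwards, at 0.8 μg/kg per dose to the low dose cohort and in steps of 0.8, 1.6, 2.4 and 3.2 μg/kg to the escalating cohort. The cohort names therefore stand for the horses and their arrays, not for a drug effect. The comparison asks which genes gave the brightest signal in resting equine gluteal muscle in both cohorts, and which genes held different ranks before dosing.

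The gluteal muscle moves the hind limb and is built mostly of fast-twitch fibers in the Thoroughbred. In each fiber, myosin of the thick filament pulls on actin of the thin filament when the sarcoplasmic reticulum, the calcium store of the fiber, releases calcium onto the troponin complex. Fast and slow fibers use different isoforms of myosin, troponin and the calcium pump. Fuel comes from glycogen and glucose through glycolysis and from fatty acids and pyruvate through the mitochondria, with creatine phosphate as a quick reserve.

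The signal of each array was converted to ranks because the deposited log2 values of the cohorts lie on different scales. The array medians were between 2.5 and 2.69 in the low dose cohort and between 4.06 and 4.22 in the escalating cohort. A percentile here is the place of a probeset (a group of probes that reports a transcript) among the 30558 probesets of its own array, from 0 for the dimmest to 100 for the brightest, and rank 1 is the brightest. Of the probesets, 16789 carried a single gene symbol, for 16661 genes, and the brightest probeset stood for a gene with several. Of these genes, 607 with a provisional symbol (LOC or a database number) were left out when genes were ordered or named. Probes bind with different strength, so an order between genes is an order of signal and not of transcript number, and in whole tissue fewer cells of a type cannot be told apart from less RNA per cell.

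L4 and L5 stood apart from the other horses. The percentiles of L1, L2 and L3 correlated with each other at r = 0.922 to 0.932 across probesets, and those of the escalating cohort with each other at 0.947 to 0.963. Between L1 to L3 and the escalating horses r was 0.852 to 0.886, against 0.615 to 0.740 between L4 or L5 and the escalating horses. The standard deviation of log2 values within an array was 1.38 in L4 and 1.31 in L5 and at least 1.67 in the other 7 arrays, so their signal was more compressed. Values without L4 and L5 are given below for the main results. Of 12 markers of skeletal muscle, 11 were measured, and their cohort mean percentiles were between 91.1 and 99.95.

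Among genes ordered by name, the strongest signals in both cohorts belonged to genes of contraction and of glycogen and glucose breakdown. Of the genes without a provisional symbol, ALDOA, the glycolytic enzyme aldolase A, had the highest mean percentile. Probesets without such a gene were brighter than it in every array. Its rank was 7, 9, 12, 14 and 17 in L1 to L5 and 17.5, 13.5, 11.5 and 15 in E1 to E4. The cohorts overlapped, and no horse placed it below the 20 brightest probesets. ND1, a mitochondrially encoded subunit of respiratory complex I, came second, at ranks 11, 7, 11, 20 and 93.5 in the low dose cohort and 4, 4, 10 and 4 in the escalating cohort. L5 was the only horse in which ND1 was outside the 20 brightest. GAPDH of glycolysis, MYL1 (an essential light chain of fast myosin), CKM (the muscle creatine kinase, which regenerates ATP from creatine phosphate) and MYL11 (the regulatory light chain of fast myosin) followed. CKM had ranks of 14, 15, 20, 35.5 and 39.5 in L1 to L5 and 21.5, 12, 16 and 13.5 in E1 to E4, with L4 and L5 the dimmest. PYGM, the phosphorylase that opens glycogen breakdown in muscle, the giant sarcomere protein TTN, the fast troponin TNNT3 and the thin filament ruler NEB completed the first 10. ACTA1, the actin of the skeletal thin filament, was at ranks 46 to 62 in the low dose cohort and 45.5 to 63 in the escalating cohort, and the cohorts overlapped. ATP2A1, the calcium pump of fast fibers, and MB, the oxygen carrier myoglobin, stood next.

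**Figure D1:**
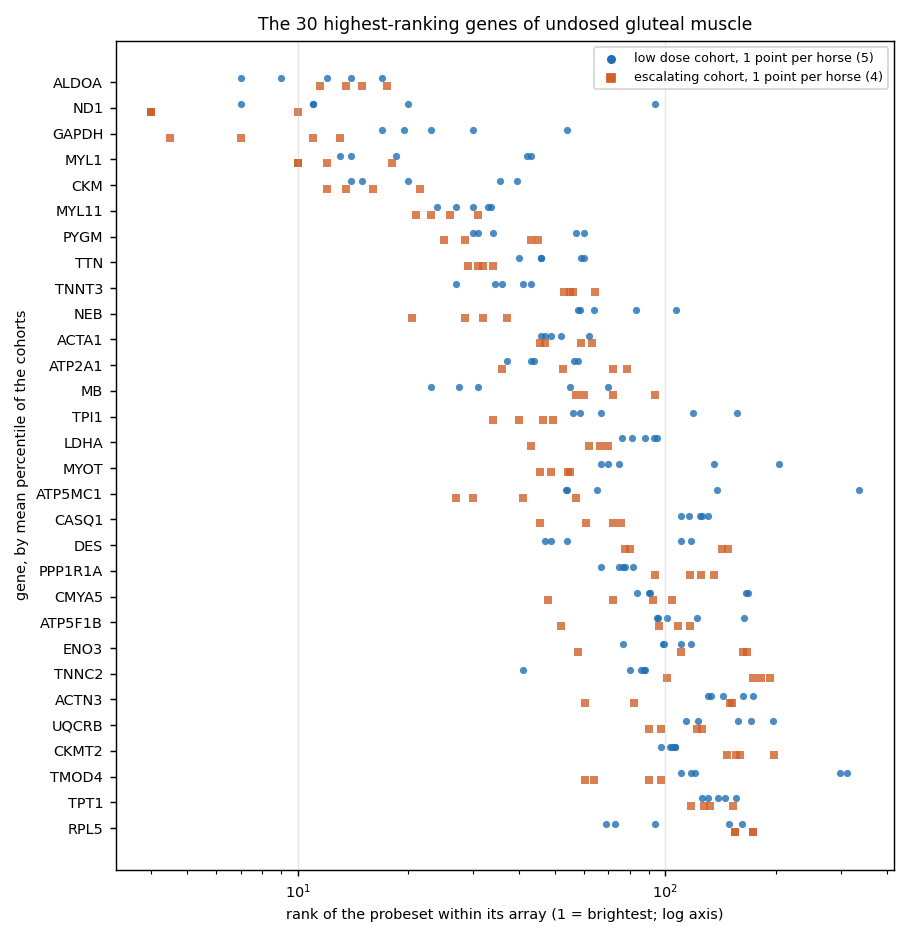
Rank within the array (horizontal, log axis, 1 is the brightest of 30558 probesets) of the 30 genes with the highest mean percentile of the cohorts; circles are the 5 low dose horses and squares the 4 escalating horses. Genes with provisional symbols are left out. ALDOA lies between ranks 7 and 17.5 in all 9 horses. Points do not overlap between the cohorts for GAPDH, TTN, TNNT3, NEB, TPI1, LDHA, MYOT, CASQ1, PPP1R1A, TNNC2, CKMT2 and TMOD4. Of all genes, 34.5% did not overlap.

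With provisional symbols left out, the cohorts shared 70 of their 100 highest-ranking genes, and 7 of their first 10. Of the 70 shared genes, 12 were enzymes of glycolysis and glycogen, 10 belonged to oxidative phosphorylation, 9 to the thin filament and the sarcomere frame, 9 were cytosolic ribosomal proteins and 6 were fast-twitch contractile genes. Calcium handling gave 4 and slow-twitch contraction gave 1, MYBPC1, a myosin-binding protein. The citric acid cycle, fatty acid oxidation, matrix, endothelial and leukocyte lists gave 0. Among the 13 shared genes that were in no list were PPP1R1A, a protein phosphatase inhibitor, CMYA5, a large protein of the sarcomere edge, PDLIM3 of the Z-disc, NRAP, a scaffold of myofibril assembly, and GOT2, a mitochondrial aminotransferase. Without L4 and L5, 76 of the first 100 were shared.

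Whole pathways of fuel use lay near the top of each array. The 10 measured fast-twitch contractile genes had a median of 99.6 in the low dose and 99.4 in the escalating cohort, and 8 of them exceeded percentile 99 in both. The 20 genes of glycolysis and glycogen had medians of 99.2 and 99.4, with 12 above 99 in both cohorts. At the lower end of that list were HK2, the hexokinase of insulin-sensitive tissue, at 64.6 and 56.6, and LDHB, the heart form of lactate dehydrogenase, at 86.0 and 85.6, while its muscle form LDHA was at 99.7 and 99.8. The 29 genes of oxidative phosphorylation had medians of 97.8 and 98.7, the 14 subunits of ATP synthase 98.7 and 98.8, and the 20 of the citric acid cycle 96.1 and 97.8. Genes of fatty acid oxidation and uptake lay lower, at 88.8 and 93.4 over 24 genes, and only ECH1, an isomerase of that pathway, was above 95 in both cohorts. The medians over all genes were 58.3 and 59.7. Without L4 and L5 the fatty acid list was at 93.6 in the low dose cohort.

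**Figure D2:**
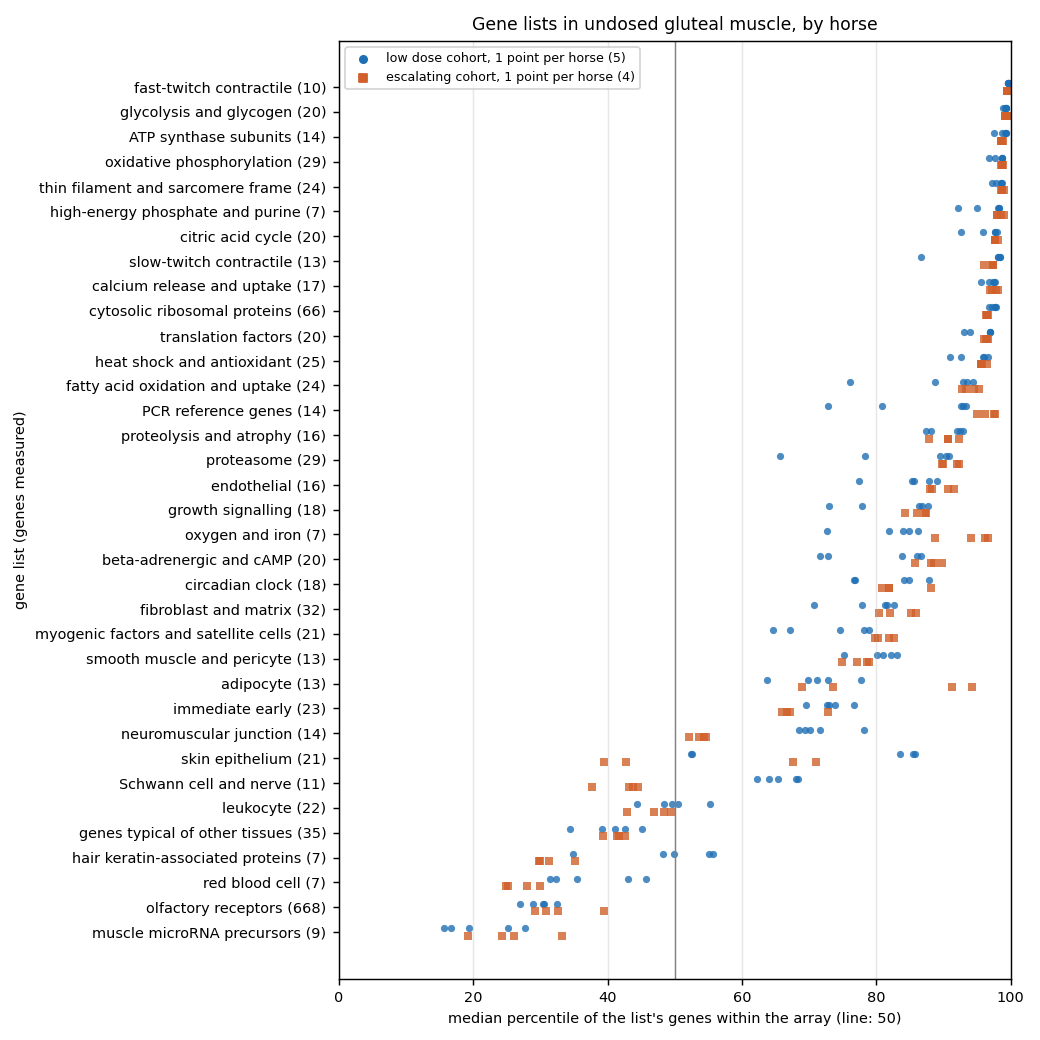
Median percentile of each gene list (horizontal, 0 to 100) in each horse; circles are the 5 low dose horses, squares the 4 escalating horses, and the number of measured genes is in brackets. Contractile and energy lists lie above 86 in every horse except fatty acid oxidation in L5 (76.2). The Schwann cell and nerve, neuromuscular junction, red blood cell and ribosomal protein lists lie lower in all 4 escalating horses than in any low dose horse. The oxygen and iron, PCR reference and myogenic lists lie higher in all 4.

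Some slow-twitch genes, and some genes of other kinds, were dim in L5 and bright in the other 8 horses. The 13 slow-twitch genes had a median percentile of 98.2, 98.5, 98.2, 98.5 and 86.6 in L1 to L5 and 97.3, 96.1, 97.3 and 97.5 in E1 to E4. MYL3, a light chain of slow and cardiac myosin, was at 98.2, 97.9, 98.1, 97.1 and 45.8 in L1 to L5 and at 96.1 to 97.5 in the escalating horses. ATP2A2, the calcium pump of slow fibers, was at 98.1, 98.3, 98.3, 97.4 and 46.5 in the low dose horses and at 95.9 to 98.3 in the escalating horses. TNNC1, the slow troponin C, was at 78.5 in L5 and between 97.7 and 99.6 in the other 8 horses. MYL2, the slow regulatory light chain, was at 93.0 in L5 and between 98.7 and 99.8 in the others. L5 was thus the lowest of 9 horses for MYL3, ATP2A2, TNNC1 and MYL2. MYH7, the slow myosin heavy chain, did not share this, at 99.1, 99.1, 98.98, 98.99 and 99.5 in L1 to L5 and 98.7, 98.2, 99.3 and 98.6 in E1 to E4, where L5 was the highest. The second biopsy of L5, taken on the low dose in week 2, again had the lowest MYL3 (78.8) and ATP2A2 (62.4) of the 5 horses, and TNNC1 was back at 98.2 there. Genes outside the slow-twitch list also fell in L5 before dosing. RPL12, a ribosomal protein, was at ranks 66 to 415.5 in L1 to L4, 15845.5 in L5 and 93.5 to 164.5 in E1 to E4. The proteasome list had a median of 65.7 in L5, 78.3 in L4 and at least 89.5 in the others. The fast-twitch median was highest in L5, at 99.7.

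Before dosing, the cohorts differed in the rank of many genes. Limma called 6240 of 30558 probesets (20.4%). By gene, it called 4122 of 16661 genes at an adjusted p under 0.05 (24.7%), of which 2171 held a higher percentile in the escalating cohort (13%) and 1951 a lower one (11.7%). Without L4 and L5 the numbers were 3011 higher and 2399 lower, and 3642 of the 4122 genes were called again in the same direction. Cohort and array processing cannot be told apart, because the arrays of each cohort lie on a scale of their own and the sources used here do not state which were normalized together. The share of called genes was 34.3% between percentiles 50 and 75, 6.64% between 90 and 95, and 0 of 77 genes above 99, where 22 did not overlap between the cohorts (34.5% of all genes did not overlap, 19.6% with the escalating cohort above and 14.8% with it below). A percentile has little room at the top, so for bright genes the differences are also given in log2 after the 9 arrays were set to the same distribution (quantile normalization). On that scale limma called 4185 genes (25.1%), 2589 higher (15.5%) and 1596 lower (9.58%) in the escalating cohort, and 7 of the 77 brightest.

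**Figure D3:**
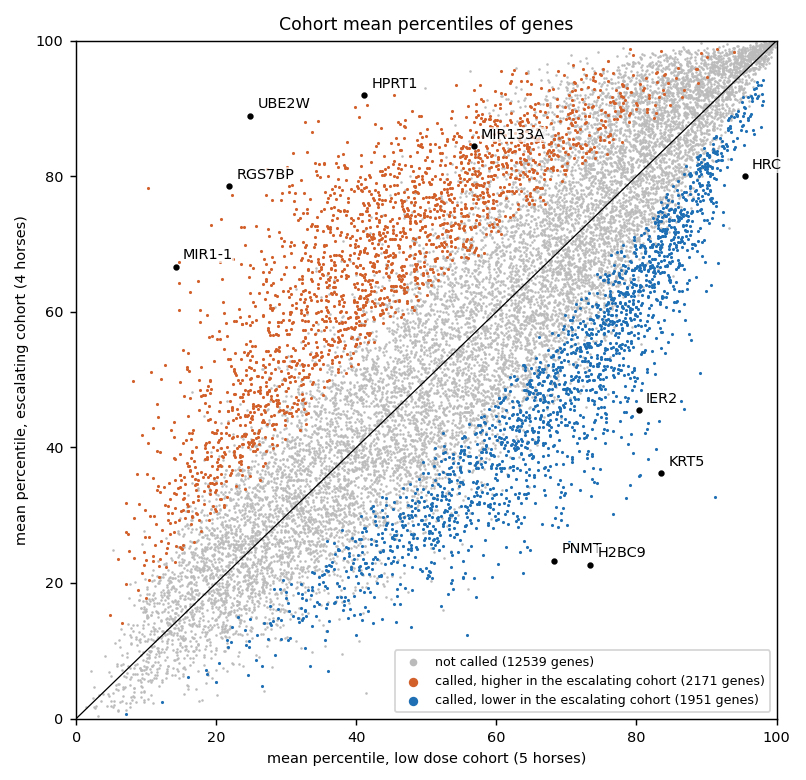
Mean percentile of each of 16661 genes in the escalating cohort (vertical, 4 horses) against the low dose cohort (horizontal, 5 horses); colored points are the 2171 genes called higher and the 1951 called lower in the escalating cohort, and the line marks equal percentiles. The called genes lie mostly in the middle of the range, and the points close in on the line at the bright end.

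Among bright genes of contraction and calcium handling, MYH2, HRC and TCAP were lower in the escalating cohort. MYH2, which encodes the fast 2A myosin of oxidative fibers, had quantile-normalized log2 values of 11.55, 11.62, 11.65, 11.31 and 10.95 in L1 to L5 and of 10.26, 7.99, 9.24 and 9.997 in E1 to E4. The cohorts did not overlap, and E2 was the lowest. The difference was -2.04 (standard error 0.45, limma adjusted p = 0.013), and -1.96 without L4 and L5. In ranks this was 38 to 67 in the low dose cohort and 108.5 to 625.5 in the escalating cohort, and its percentile difference of -0.755 was not called (limma adjusted p = 0.464). HRC, a calcium-binding protein inside the sarcoplasmic reticulum, was at percentiles 95.6, 93.8, 95.5, 96.7 and 95.6 in L1 to L5 and 78.1, 81.5, 81.1 and 79.5 in E1 to E4. This gap of -15.4 points (standard error 1.34, limma adjusted p = 0.00076) was many times the spread within either cohort. TCAP, which caps titin at the Z-disc, was at 97.4 ± 0.395 (SD, n = 5) in the low dose and 93.4 ± 0.781 (SD, n = 4) in the escalating cohort and was called lower, with no overlap. NEB was higher in the escalating cohort by 1.11 log2 (limma adjusted p = 0.025), but the call was lost without L4, E1, E2 or E3 (limma adjusted p of 0.0506 to 0.0803). Of the other members of the calcium list, TRDN, which anchors calsequestrin to the release channel, was higher by 1.39 log2 (limma adjusted p = 0.018) and this call was lost without E2 or E3 (limma adjusted p of 0.0573 and 0.0594). CSRP3, a stress-sensing LIM protein of the Z-disc, varied within the escalating cohort, at 88.2 and 89.5 in E1 and E4 and 57.9 and 53.9 in E2 and E3, against 85.2 to 96.2 in the low dose horses. CSRP3 was not called on percentiles (limma adjusted p = 0.079) and was called lower on the log2 scale, by a difference of -1.96 (limma adjusted p = 0.042), a call that passed only without L5 or E4 when each horse was left out (limma adjusted p of 0.0188 to 0.125). With all horses, 0 of the 10 fast-twitch and 0 of the 13 slow-twitch genes were called on percentiles. Over all genes 13% were called higher and 11.7% lower, but 0 of the 77 genes above percentile 99. Without L4 and L5, 2 slow-twitch genes were called lower and 1 higher on percentiles, against 14.4% and 18.1% of all genes. On the log2 scale 8 slow-twitch and 4 fast-twitch genes were then called lower and 1 of each higher. Of all 16661 genes, 2489 were called lower and 3016 higher on that scale without L4 and L5.

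**Figure D4:**
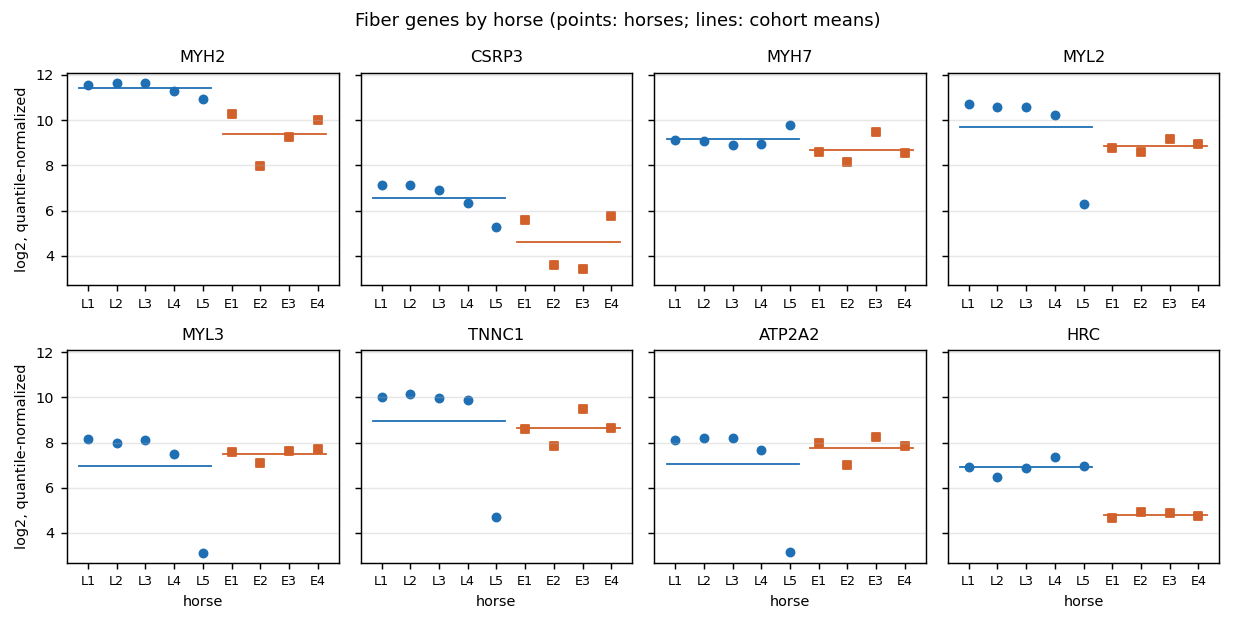
Quantile-normalized log2 signal (vertical) of 8 fiber genes in each horse (horizontal); circles are low dose horses, squares escalating horses, and lines are cohort means. MYH2 and HRC, which were picked for a small p, do not overlap between the cohorts, whereas MYL2, MYL3, TNNC1 and ATP2A2 are low in L5 only. In percentiles 34.5% of all genes did not overlap.

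Of the energy genes, none of 20 glycolysis and glycogen genes, 20 citric acid cycle genes or 29 oxidative phosphorylation genes was called on percentiles with all horses. Over all genes 13% were called higher and 11.7% lower. Few calls were made at this brightness, for 1.99% of genes between percentiles 95 and 99 and 0 of 77 above. These counts therefore say little about energy genes. Of the 14 ATP synthase subunits 1 was called lower, ATP5F1D (-5.27 points, limma adjusted p = 0.019, a call lost without E3 at 0.0512). NDUFC1, a subunit of complex I outside these lists, was at 95.98 to 98.9 in the low dose horses and 88.1 to 91.7 in the escalating horses and was called lower (limma adjusted p = 0.0038). On the log2 scale GYG1, glycogenin, which primes new glycogen, was at 8.71, 8.63, 8.70, 7.07 and 6.32 in L1 to L5 and 9.91, 10.45, 10.12 and 10.02 in E1 to E4. It was higher in the escalating cohort by 2.24 (limma adjusted p = 0.017) and by 1.36 without L4 and L5, and the call was lost without E2 or E3 (limma adjusted p of 0.0541 and 0.0526). CYCS, cytochrome c, was at 8.07 to 8.82 in the low dose horses and 9.55 to 10.05 in the escalating horses, a difference of 1.33 (standard error 0.28, limma adjusted p = 0.011). ATP5F1E, a small subunit of ATP synthase, went the other way, from 8.48 to 9.61 in the low dose horses to 7.53 to 7.94 in the escalating horses, a difference of -1.44 (limma adjusted p = 0.012). Neither set of values overlapped. SLC27A1, a fatty acid transporter, was at percentiles 84.6, 82.0, 83.5, 89.3 and 86.5 in L1 to L5 and 63.1, 67.0, 58.8 and 66.4 in E1 to E4 (limma adjusted p = 0.0019). It and ETFB, an electron carrier of β-oxidation (87.7 ± 4.67, n = 5, against 71.3 ± 0.983, n = 4, SD), were lower in the escalating cohort and were the only 2 called of the 24 fatty acid genes. With all horses 11.7% of all genes were called lower. Without L4 and L5, where limma called 14.4% of all genes lower and 18.1% higher, 5 of these 24 genes were called lower and 2 higher. In that setting 5 of 20 citric acid cycle genes were lower and 1 higher, and 5 of 29 genes of oxidative phosphorylation were lower and 0 higher.

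BNIP3, a mitophagy receptor that also responds to low oxygen, was higher in the escalating cohort on the log2 scale. Its percentile was 97.2, 97.4, 97.7, 87.8 and 84.4 in L1 to L5 and 99.5, 99.6, 99.6 and 99.6 in E1 to E4. In log2 it was higher in the escalating cohort by 3.21 (standard error 0.59, limma adjusted p = 0.0066), and by 2.22 without L4 and L5. DDIT4, a stress-induced brake on mTOR signalling, was at 95.4, 92.0, 92.8, 90.8 and 91.1 in the low dose horses and 58.9, 74.7, 81.7 and 76.0 in the escalating horses. It was the 1 gene called lower of 16 of proteolysis and atrophy, and 0 were called higher, against 11.7% and 13% of all genes. Of 18 growth signalling genes, 3 were called higher and 4 lower, against 13% and 11.7% of all genes. ACVR2B, an activin and myostatin receptor, was at 62.0 to 75.2 in the low dose horses and 83.6 to 88.4 in the escalating horses (limma adjusted p = 0.0077). IGFBP3, which binds insulin-like growth factors, was at 69.6 to 87.3 and 59.7 to 67.6 (limma adjusted p = 0.014).

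The 21 myogenic and satellite cell genes had medians of 75.8 and 82.5, above the 58.3 and 59.7 of all genes. MYOD1, the master regulator of myogenic fate, was at 68.0, 71.5, 65.3, 74.3 and 83.5 in L1 to L5 and 52.2, 56.9, 50.03 and 51.8 in E1 to E4. It was lower in the escalating cohort, with a difference of -19.8 points (standard error 4.24, limma adjusted p = 0.013) and no overlap. MUSTN1, a small protein of muscle and bone growth, was at 98.0 ± 0.591 (SD, n = 5) and 94.3 ± 0.704 (SD, n = 4) and was also called lower. PAX7, the marker of satellite cells, the stem cells of muscle, had means of 66.6 and 51.1, and its call (limma adjusted p = 0.036) was lost without any of L1, L2 and the 4 escalating horses, with a limma adjusted p between 0.0308 and 0.103 when each horse was left out in turn. MEF2A, a partner of the myogenic factors, was at 6.36, 6.72, 6.51, 4.88 and 4.03 log2 in L1 to L5 and 8.04, 8.90, 8.72 and 8.03 in E1 to E4, higher by 2.72 (limma adjusted p = 0.01). Of the 21 genes, 4 were called lower and 0 higher on percentiles, against 11.7% and 13% of all genes. Without L4 and L5 5 were lower and 3 higher, against 14.4% and 18.1% of all genes. Among 9 precursors of muscle microRNAs, a list made after the data were seen, MIR1-1 was at 12.1, 25.8, 11.7, 9.86 and 11.6 in L1 to L5 and at 64.3, 75.6, 75.4 and 51.4 in E1 to E4. MIR133A was at 43.9 to 72.6 in the low dose horses and 81.5 to 87.0 in the escalating horses. Both were called higher, and MIR133B, from another locus, was at 26.0 and 27.7. In the second biopsies of the escalating cohort, in week 4, MIR1-1 was at 12.3 to 19.1, and in those of the low dose cohort, in week 2, at 13.2 to 36.0.

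Genes of the cAMP pathway, in which a small messenger made at the membrane activates protein kinase A, were called in 1 direction. Of 20 measured, 6 were higher in the escalating cohort and 0 lower, against 13% and 11.7% of all genes. CREM, a cAMP-responsive transcription factor, was at 51.5, 48.3, 40.7, 42.6 and 34.5 in L1 to L5 and 71.1, 68.6, 73.2 and 70.2 in E1 to E4, a difference of 27.3 points (standard error 4.22, limma adjusted p = 0.004). CREB1, the main transcription factor that protein kinase A activates, was at 71.3 to 79.0 and 88.1 to 88.5, and PRKACB, a catalytic subunit of that kinase, at 50.1 to 72.9 and 85.3 to 90.2. PDE7A, a phosphodiesterase that breaks down cAMP, was at 26.4 to 70.7 and 75.1 to 90.4, a call that was lost without E3 (limma adjusted p = 0.0592). GNAS, the stimulatory G protein, ranked highest of the list at 98.0 and 98.99 and was not called. With L4 and L5 left out 7 were higher and 1 lower, against 18.1% and 14.4% of all genes. The list's median difference was then 1.87 points in place of 7.53, against 0.222 and 0.966 over all genes.

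Immediate early genes, transcription factors that cells switch on within minutes of a stimulus, were called in the opposite direction. Of 23 measured, 8 were lower in the escalating cohort and 0 higher, against 11.7% and 13% of all genes. Without L4 and L5 8 were lower and 0 higher, against 14.4% and 18.1% of all genes. IER2 was at 79.0, 74.6, 70.3, 87.7 and 89.9 in L1 to L5 and 43.6, 45.9, 45.5 and 46.8 in E1 to E4, a difference of -34.8 points (standard error 4.54, limma adjusted p = 0.0021). EGR3 was at 68.8 to 89.4 and 34.0 to 48.5, KLF4 at 87.4 to 91.2 and 66.5 to 78.3, and FOSL2 at 89.6 to 92.2 and 75.3 to 78.4. None of these 4 overlapped between the cohorts, but they were picked for the smallest p of the list, so this is no further result. Over all genes 34.5% did not overlap. FOS and EGR1, the best known of the group, were not called, with means of 64.9 and 73.4 for FOS and 58.4 and 63.4 for EGR1. In the circadian clock list 3 of 18 were higher and 2 lower, close to the 13% and 11.7% of all genes. Without L4 and L5 5 were higher and 4 lower, against 18.1% and 14.4% of all genes. NFIL3, a repressor of clock output, was at 56.3 to 66.2 and 77.1 to 92.4.

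Of 21 genes of skin epithelium, 9 were called lower in the escalating cohort and 0 higher, against 11.7% and 13% of all genes. KRT5, the keratin of basal skin cells, was at 93.7, 94.7, 93.7, 60.4 and 75.4 in L1 to L5 and 35.8, 32.4, 33.5 and 43.2 in E1 to E4, a difference of -47.4 points (standard error 7.4, limma adjusted p = 0.0041). Its partner KRT14 was at 64.8 to 93.1 and 32.1 to 50.3. KRT1, the keratin of the outer skin layers, followed another pattern, at 98.98, 99.1 and 99.3 in L1 to L3, 62.8 and 32.4 in L4 and L5, 90.7 and 92.1 in E1 and E4, and 42.2 and 19.2 in E2 and E3. It was not called. The list's median in each horse ran from 52.4 to 85.7 in the low dose and from 39.5 to 71.1 in the escalating cohort, and these overlapped. With L4 and L5 left out, 14 of the 21 were called lower, against 14.4% of all genes. The part of skin markers in the other differences between the cohorts was not tested.

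Of 11 genes of Schwann cells and nerve, 5 were called lower in the escalating cohort (11.7% of all genes were) and 0 higher on percentiles. MBP, a protein of the myelin sheath, was at 62.2, 64.0, 69.6, 65.4 and 68.4 in L1 to L5 and 42.9, 44.6, 43.8 and 37.7 in E1 to E4, a difference of -23.7 points (standard error 3.48, limma adjusted p = 0.0032). NCMAP, another protein of myelinating Schwann cells, was at 47.1 to 69.1 and 26.9 to 32.9. PMP22, a myelin gene that other cells also use, was at 77.3 and 89.6 and was not called on percentiles (limma adjusted p = 0.066), but was called higher without L4 and L5 (limma adjusted p = 0.0172). On the log2 scale it was called higher with all horses (1.06, limma adjusted p = 0.042), a call lost without L1, L4 or any 1 escalating horse (limma adjusted p up to 0.117). At the neuromuscular junction, 3 of 14 genes were called lower and 0 higher, against 11.7% and 13% of all genes. AGRN, the nerve signal that gathers acetylcholine receptors, was at 74.3, 77.9, 75.7, 88.3 and 91.4 in L1 to L5 and 46.2, 52.4, 55.1 and 51.1 in E1 to E4, and the receptor subunits CHRNE and CHRNG were at means of 66.0 and 66.7 against 41.5 and 40.7. CHRNA1, the receptor subunit that every form of the receptor holds, was at 81.4 and 84.2 and was not called. NEFL and S100B, further defining markers of nerve, were at 13.4 and 31.4 in the low dose and 12.8 and 32.5 in the escalating cohort.

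**Figure D5:**
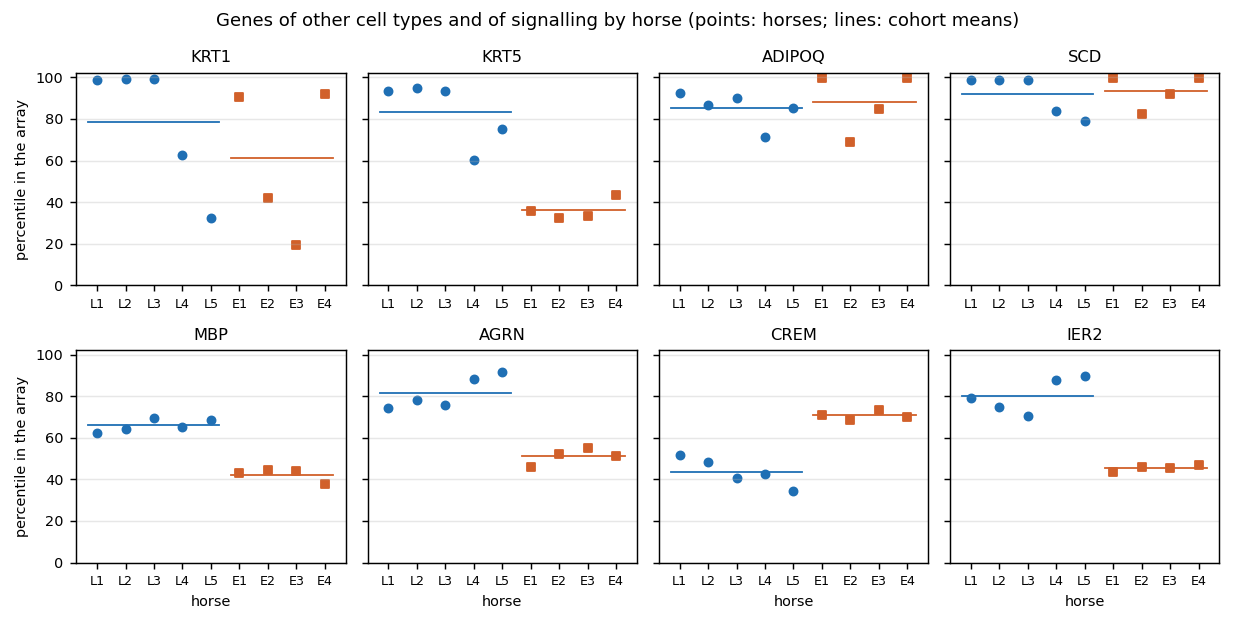
Percentile within the array (vertical, 0 to 100) of 8 genes in each horse (horizontal); circles are low dose horses, squares escalating horses, and lines are cohort means. KRT1, ADIPOQ and SCD split horses within a cohort (E1 and E4 above E2 and E3), whereas MBP, AGRN, CREM and IER2 split the cohorts with no overlap. The latter were picked for a small p in their lists, and 34.5% of all genes did not overlap.

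Fat genes divided the escalating cohort. ADIPOQ, the hormone adiponectin, was at 99.5 in both E1 and E4, at 69.0 in E2 and at 84.7 in E3, against 71.2 to 92.3 in the low dose horses. SCD, a desaturase of fatty acid synthesis, was at 99.7 in E1 and E4, 82.4 in E2 and 91.9 in E3. In the low dose cohort it was at 98.9, 98.7 and 98.6 in L1 to L3 and 83.7 and 79.2 in L4 and L5. FABP4, a fatty acid binding protein of fat cells, was at 98.7 in E1 and E4 against 88.9 and 90.2 in E2 and E3. The median of the 13 fat genes was 91.3 and 94.2 in E1 and E4 and between 63.8 and 77.7 in the other 7 horses. The cohorts overlapped in ADIPOQ, SCD and FABP4, none of these was called, and their part in the cohort differences was not tested. E1 and E4 were also the escalating horses with high KRT1.

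Red blood cell genes ranked low in both cohorts, and leukocyte genes ranged widely. Of 7 red blood cell genes, 2 were called lower in the escalating cohort, against 11.7% of all genes. These were ALAS2 and CA1, both lost without L4 or any 1 escalating horse (limma adjusted p of 0.0506 to 0.0936). HBB, the β chain of hemoglobin, was at 27.3 and 22.3. The 22 leukocyte genes had medians of 48.9 and 47.7, below the 58.3 and 59.7 of all genes. In both cohorts 5 of them were at percentile 50 or more and 8 were below it. CD74 ranked highest of the list, with a mean of 97.7 over the cohorts. CD8A, a marker of cytotoxic T cells, was at 54.3 to 84.5 in the low dose horses and 26.7 to 37.7 in the escalating horses and was called lower, and LYZ, lysozyme, at 36.7 to 59.2 and 64.2 to 85.7, was called higher (limma adjusted p = 0.014, and 0.0504 without E1). Defining markers of T cells CD3E and CD4 were at 38.7 and 48.8 in the low dose and 34.3 and 45.2 in the escalating cohort and were not called. In the matrix list 4 of 32 genes were called higher and 1 lower, near or under the 13% and 11.7% of all genes. Without L4 and L5 8 were higher and 2 lower, against 18.1% and 14.4% of all genes. MFAP5, a protein of elastic microfibrils, was at 71.5 to 80.2 in the low dose horses and 89.4 to 94.5 in the escalating horses (limma adjusted p = 0.0044). COL1A2, a chain of type I collagen, was at 73.03 to 74.995 in the low dose horses and 83.6, 76.8, 81.3 and 88.8 in E1 to E4, with a limma adjusted p of 0.046 that ranged from 0.0347 to 0.137 with each horse left out and passed the threshold only without L5 or E2. Odorant receptors of the nose, which muscle is not known for, gave 62 of 668 higher and 25 lower, both under the 13% and 11.7% of all genes, with medians of 30.4 and 33.2.

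The translation machinery was bright in both cohorts. The 66 cytosolic ribosomal protein genes had medians of 97.4 and 96.5, and 9 were called lower and 0 higher, where 11.7% of all genes were lower. Of 20 translation factors 1 was called higher and 0 lower, with a median difference of 1.62 points. The ribosomal list's median in a horse was 96.8 to 97.8 in the low dose and 96.3 to 96.6 in the escalating cohort, with no overlap. RPLP1, an acidic protein of the ribosomal stalk, was at 96.7, 96.8, 97.3, 99.3 and 98.8 in L1 to L5 and 87.1, 88.1, 87.6 and 86.3 in E1 to E4, a difference of -10.5 points (standard error 1.07, limma adjusted p = 0.00097). RPS24 was at 95.4 to 98.4 and 83.1 to 90.3. When L4 and L5 were left out, 23 of the 66 were lower and 2 higher, against 14.4% and 18.1% of all genes. Among 14 genes used as references in PCR, GAPDH, RPLP0, PGK1, SDHA, ACTB and B2M were above percentile 95 in both cohorts and were not called. B2M, the reference gene in the PCR of the study, was at 98.0, 97.8, 97.7, 95.3 and 91.1 in L1 to L5 and 97.0 to 97.7 in E1 to E4. HPRT1, an enzyme of purine salvage, was at 44.5, 53.1, 71.8, 26.0 and 10.4 in L1 to L5 and 90.4, 92.9, 92.8 and 91.6 in E1 to E4. It was higher by 50.8 points (standard error 10.7, limma adjusted p = 0.012), and by 35.5 without L4 and L5.

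The largest rank differences were in genes of mixed function, with the keratins KRT5 and KRT14 of the skin list among the lower genes. UBE2W, a ubiquitin-conjugating enzyme, was at 27.3, 17.5, 41.2, 16.5 and 21.9 in L1 to L5 and 86.4, 92.9, 89.9 and 86.6 in E1 to E4, higher by 64.1 points (standard error 5.45, limma adjusted p = 0.00076). RGS7BP, a membrane anchor of regulators of G proteins, was at 21.8 ± 7.2 (SD, n = 5) and 78.6 ± 6.81 (SD, n = 4) and was called higher. PTS, an enzyme of tetrahydrobiopterin synthesis, was called higher too, at 32.6 ± 9.17 (SD, n = 5) and 88.0 ± 2.16 (SD, n = 4). In the other direction, the histone gene H2BC9 was at 45.8, 57.3, 68.8, 97.4 and 97.6 in L1 to L5 and 19.9, 35.1, 18.7 and 17.2 in E1 to E4. L4 and L5 held its highest values, and its difference was -50.7 points with them and -34.6 without (limma adjusted p = 0.014 and 0.0086), but on the log2 scale it was not called (limma adjusted p = 0.057). KRT5, given above, came next at -47.4 points. GPRIN1, a protein of neurite growth, differed by -46.7 points and by -34.6 without L4 and L5. ACER1 differed by -46.5 points and KRT14 by -43.1. Without L4 and L5 the differences were -57.8 for KRT5, -60.0 for ACER1 and -50.8 for KRT14. PNMT, which makes adrenaline from noradrenaline, was at 57.0, 59.2, 66.8, 77.1 and 81.3 in L1 to L5 and 19.2, 32.1, 17.1 and 24.7 in E1 to E4, a difference of -45.0 points (standard error 6.08, limma adjusted p = 0.0025). UBE2W, RGS7BP, PTS, H2BC9, KRT5, GPRIN1, ACER1, PNMT and KRT14 were picked from called genes without overlap, so their separation between the cohorts is no further result. The same holds for MYH2, HRC, TCAP, CYCS, ATP5F1E, MYOD1, MBP, AGRN and CREM, which were picked for the smallest p in their lists. Over all genes, 34.5% did not overlap.

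Genes that the study followed on the drug held these places before dosing. MYH8, a myosin heavy chain of developing muscle, was at 22.2 to 29.9 in the low dose horses and 6.88, 19.8, 24.2 and 8.38 in E1 to E4, and was not called. MYH10, a non-muscle myosin, was at 30.9 to 60.6 and 71.4 to 80.2 and was called higher in the escalating cohort (limma adjusted p = 0.015), a call lost without E3 (limma adjusted p = 0.0538). IL1A, the cytokine interleukin 1α, was at 28.4 to 41.6 and 47.0 to 56.8 and was called higher (limma adjusted p = 0.014), with the call lost without E3 (limma adjusted p = 0.0503). LPL, the lipase that frees fatty acids from lipoproteins, was at 86.8, 84.4, 87.1, 78.2 and 55.1 in L1 to L5 and 98.3, 87.2, 89.3 and 98.1 in E1 to E4, with E1 and E4 again the highest, and was not called. COL1A1, COL3A1, SCD, MUSK, MYLK, MMP13, IL6 and DSC2 were not called either.

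Most differences between the undosed cohorts were also seen against the second biopsies of the low dose horses, which shared their horses and scale. Of the 2171 genes called higher, 1286 (59.2%) had all 4 undosed escalating horses above all 5 low dose horses of week 2, against 13.9% of all genes. Of the 1951 called lower, 1377 (70.6%) had all 4 below, against 13.4%. HRC was at 92.7 to 95.3 in week 2 of the low dose and MBP at 60.3 to 83.9, above the undosed escalating values of both. KRT5 was at 37.5 to 60.3 in the low dose horses in week 2, lower than before dosing in every horse, and there overlapped with the undosed escalating horses, which the undosed low dose horses did not. These counts use the same undosed escalating arrays as the calls and are not independent of them.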

How the data were processed

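Biopsies of superficial gluteal muscle were profiled on EquGene-1.0-st arrays. The authors deposited log2 values made with RMA (robust multi-array averaging), and Affymetrix Expression Console and Transcriptome Analysis Console 3.0 are named among their tools. The version of the former is not given in the sources used here. Scanned images were not used here. Of 30559 probesets, 1 had a missing value and 30558 were used. Each array was converted to percentiles, since the deposited scales of the cohorts differ, and the cohorts were compared with limma 3.58.1 (R 4.3.3, moderated by a variance trend), with Benjamini-Hochberg adjustment over all probesets and a threshold of 0.05. The same fit was run on quantile-normalized log2 values of the 9 arrays. A gene was represented by its probeset of highest mean percentile, and probesets with several symbols or none were not named. Each horse gave 1 undosed array, so the replicates are separate horses, and their number limits the precision. The genes named are the 30 with the highest mean of both cohorts, the 12 largest rank differences in each direction among called genes without overlap, the 12 largest log2 differences in each direction among called genes at percentile 75 or more in a cohort, up to 4 brightest and 4 of smallest p from each list, and genes the study names. ACTB, TNNC1, ATP2A2, MYL3, ADIPOQ, LDHB, KRT1, FOS, EGR1, HK2, CD4, CD3E, S100B, MIR133B, NEFL and RPL12 were added after their values were seen, as were the genes in no list. The members and lists were chosen with earlier results of these data known, and the lists of microRNA precursors and ATP synthase subunits after their values were seen. Alternatives were other scales, the brighter probesets, single-symbol ranks, no variance trend, array weights, an exact rank-sum test and leaving out horses. The scripts were tested on simulated data.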

Additional observations from a re-analysis of the deposited data

Results flagged for a closer look

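The percentiles of reported genes, RPL12 not included, and the medians of gene lists in each cohort made 218 groups of values. Of these, 24 held a horse that lay far from the rest of its cohort by Dixon's criterion. Independent, normally distributed values meet it in about 1 in 20 groups. That rate does not apply here, because percentiles are bounded and the list medians rest partly on the same genes. The genes were also chosen with earlier results known, and some, such as MYL3, ATP2A2 and TNNC1, after their values were seen. L5 was the horse set apart 15 times, 13 as the lowest and 2 as the highest. Among the genes looked at, the slow-fiber genes set L5 apart by the widest gaps for their range. These were MYL3 at percentile 45.8 (nearest other low dose horse 97.1), ATP2A2 at 46.5 (97.4), TNNC1 at 78.5 (99.5) and MYL2 at 93.0 (99.6). TNNT1 was at 86.9 there (97.9), and the median of the slow-twitch list at 86.6 (98.2). L5 was also lowest for LPL at 55.1 (78.2), CSRP3 at 85.2 (93.2), MUSTN1 at 97.0 (98.1), CYCS at 98.1 (98.7), ATP5F1E at 98.6 (99.3), TRDN at 98.7 (99.3) and ND1 at 99.7 (99.9). It was highest for PAX7 at 78.7 (65.4) and EGR3 at 89.4 (73.0).

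In the escalating cohort E2 was lowest for MYL3 at 96.1 (nearest 97.3) and for the slow-twitch median, also 96.1 (97.3), and highest for H2BC9 at 35.1 (19.9). E3 was highest for the medians of the circadian clock list at 88.1 (81.9), the citric acid cycle at 98.2 (97.7) and fast-twitch contraction at 99.6 (99.5), and lowest for ND1 at 99.97 (99.99). E4 was highest for RGS7BP at 88.8 (75.6). In the low dose cohort L2 was highest for MIR1-1 at 25.8 (12.1).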

How the results depend on the processing

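Limma called 6240 probesets, and 12494 after median-centring of the deposited log2 values, 4059 among the brighter probesets and 3040 to 6491 with each horse left out in turn. Genes called higher numbered 2171, and 1418 among the brighter probesets and 1043 to 2284 with each horse left out. Genes called lower numbered 1951, and 3191 after median-centring and 909 to 1980 with each horse left out. The lowest of these counts came with an escalating horse left out, and without E1 or E3 48.9% and 48.2% of the called genes were called again. An exact two-sided rank-sum test called 0 probesets, 0 genes higher and 0 lower after adjustment over all probesets (smallest adjusted p 0.0581). Adjusted over genes alone it called 5740 genes, also the number of genes without overlap between the cohorts. With 5 against 4 horses and no ties, the smallest p this rank-sum test can give is 0.0159. Which of these counts results therefore depends on the number of tests adjusted over. It had 10268 probesets at an unadjusted p under 0.05. Of the genes called again under an alternative, 0 were called in the opposite direction. Some named calls were lost. Those of TCAP and MUSTN1 were lost after median-centring and with no variance trend. On the log2 scale NEB, TRDN, CSRP3, GYG1, CYCS and ATP5F1E were lost after median-centring, whereas MYH2, BNIP3 and MEF2A were kept. COL1A2 was lost on quantile-normalized log2 values, on single-symbol ranks and among the brighter probesets. The cohorts shared 70 of the first 100 genes, 33 of the first 50 and 327 of the first 500, and 67 to 73 of 100 with each horse left out. Leaving out L4 and L5 for the first 100 was chosen after seeing the data. No paired analysis was possible because the cohorts hold different horses, whose numbers only name them. With 5 and 4 arrays of unlike scale, differences of bright genes in percentiles were limited by the top of the range, and those of dim genes by background.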
